A study of Mus musculus with 2 samples.

Results

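The IFIT and IFITM genes are 2 small families of interferon-stimulated genes, and 7 of them were examined here in the CT26 line: Ifit1, Ifit2, Ifit3, Ifit3b, Ifitm1, Ifitm2 and Ifitm3. They were taken by gene symbol from a deposited table of 54680 loci, and each of the 7 symbols was found. CT26 is a mouse colon cancer cell line. Cells named CT26shSetdb1 were infected with a lentivirus that carried a short hairpin RNA against Setdb1, a histone methyltransferase that silences genes and retroviral elements, and cells named CT26shCtrl were given a lentivirus with the empty knockdown vector. Both were grown in RPMI medium with serum for 6 days, and the knockdown cells are labelled as differentiated. There was 1 library of each kind, so no difference below has a replicate check, no p-value is given, and every value compares these 2 libraries and not the conditions. The hairpin RNA and the loss of Setdb1 cannot be told apart in this design.

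IFIT proteins are built of tetratricopeptide repeats and sit in the cytosol. IFIT1 binds RNA whose cap lacks a methyl mark of host RNA and keeps it from being translated, and in human cells IFIT2 and IFIT3 join it in complexes. IFITM proteins are short membrane proteins that hinder the fusion of viral and cellular membranes, IFITM3 mainly in endosomes and IFITM1 mainly at the cell surface. Interferon drives most of these genes through transcription factors, STAT2 and IRF9 among them, that act at the interferon-stimulated response element in their promoters.

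The 5 stretches of reference sequence upstream of, or at, the annotated starts below are shown because they hold the core letters of that element in members whose levels are then described. The motif searched was GAAANNGAAA, where N is any base, on both strands, with overlapping matches counted separately, in RefSeq windows of 250 bases before to 50 bases after each start (GRCm38.p6). Capitals mark the matches, and a match on the opposite strand reads as its reverse complement. Each stretch is written 5′ to 3′ on the strand of its gene.
Ifit1, chr19:34640771-34640870, plus strand: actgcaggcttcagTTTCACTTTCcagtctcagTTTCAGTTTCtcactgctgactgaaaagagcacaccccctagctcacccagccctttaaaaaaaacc
Ifit3, chr19:34583359-34583458, plus strand: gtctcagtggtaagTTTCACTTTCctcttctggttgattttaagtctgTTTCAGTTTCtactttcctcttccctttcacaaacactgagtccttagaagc
Ifit3b, chr19:34607755-34607854, plus strand: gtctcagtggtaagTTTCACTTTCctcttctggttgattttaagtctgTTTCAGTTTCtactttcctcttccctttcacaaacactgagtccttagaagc
Ifitm2, chr7:140955988-140956087, minus strand: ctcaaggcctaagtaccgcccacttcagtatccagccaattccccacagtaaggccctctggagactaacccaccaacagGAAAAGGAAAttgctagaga
Ifitm3, chr7:141010715-141010744, minus strand: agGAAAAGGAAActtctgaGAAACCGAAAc

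All 7 members had a window in the table, and 5 of the 7 held a match. Windows of Ifit1, Ifit3, Ifit3b and Ifitm3 each held 2 matches, and that of Ifitm2 held 1. The stretches of Ifit3 and Ifit3b were identical at 100 of 100 bases. No match lay in the 2 windows listed for Ifit2 or in the 1 window listed for Ifitm1, which says only that these letters are not in those windows. Of all 32851 windows in the RefSeq table, 1131 (3.44%) held at least 1 match, and counted by gene, as the members are, 1079 of 27025 genes (3.99%) did. The matches of Ifit1 begin 104 and 85 bases before its RefSeq start, those of Ifit3 begin 156 and 122 bases before, and those of Ifit3b begin 188 and 154 bases before. In Ifitm2 the match begins 46 bases before the start, while both matches of Ifitm3 lie just after its RefSeq start, at bases 3 to 12 and 20 to 29, within the untranslated part of its annotated first exon. A match is a description of letters, not a measured binding site, and no binding was measured here.

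Levels are given as FPKM, a fragment count divided by gene length and depth, as deposited. Both libraries had been divided by 1 common depth, so FPKM values and log2 ratios still carry the 1.03 ratio of the library totals. Whole reads could be recovered from the FPKM values for 100% of the values above 0, to within 0.001 of a read. The libraries held 18421604 reads (CT26shCtrl) and 19045830 reads (CT26shSetdb1). Each read ratio below is relative to the library's own total and carries a 95% exact binomial (Clopper-Pearson) interval. Such intervals reflect counting error alone, because there is 1 library per group. PCR copies of a molecule cannot be recognised here, so the intervals may be too narrow even for that. Setdb1 itself, the check of the labels, had 1340 reads in CT26shCtrl and 317 in CT26shSetdb1, a read ratio of 0.229 (0.202 to 0.259). Of 6 epithelial markers, Epcam and Cdh1 had 0 reads in both libraries and Krt8 had 7 and 8, in this line labelled as colon cancer. The other keratins were higher in CT26shSetdb1: Krt18 was at 37.7 and 90.0 FPKM, Krt20 at 5.07 and 35.6 FPKM, and Krt19 had 1 and 53 reads. Their part in the levels of the members was not tested. Of 7 fibroblast and mesenchymal markers, 6 reached 1 FPKM and none of them was 2-fold higher or lower on the log2(FPKM + 1) scale. Vim was at 752 and 835 FPKM, while Col3a1 was at 2.68 and 0.887 FPKM and Thy1 had 0 reads in both libraries.

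**Figure D1:**
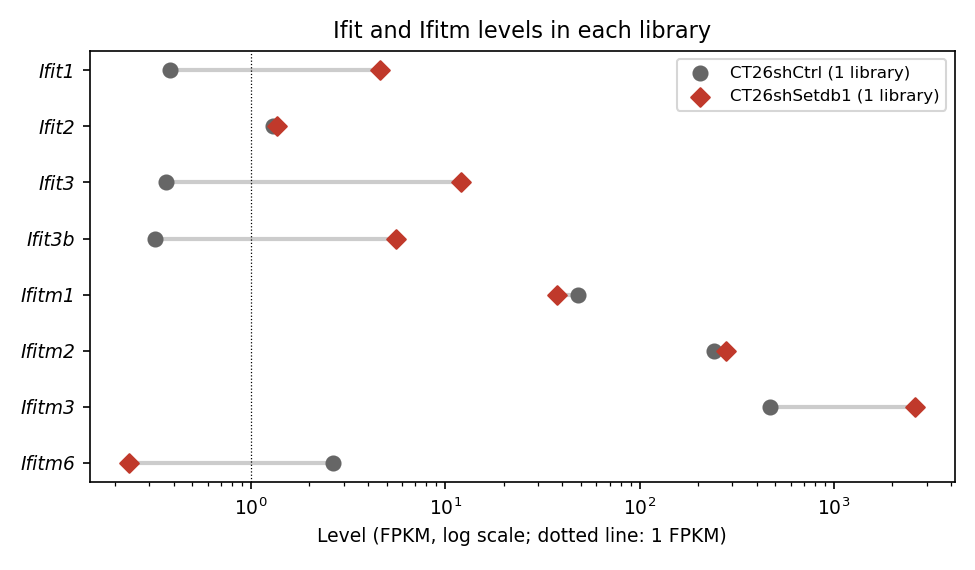
Level of each gene in FPKM (horizontal log axis) in the CT26shCtrl library (grey circles) and the CT26shSetdb1 library (red diamonds), with the dotted line at 1 FPKM. Ifit1, Ifit3, Ifit3b and Ifitm3 lie higher in CT26shSetdb1, Ifitm6 lies lower, and Ifit2, Ifitm1 and Ifitm2 lie close together.

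In the knockdown library, 4 of the 7 members were at least 2-fold higher, none was at least 2-fold lower, and the other 3 lay in between. A gene was called 2-fold higher when the log2 ratio of (FPKM + 1), knockdown over control, reached 1. Among the 10671 genes with 1 FPKM or more in at least 1 library, 727 (6.81%) were 2-fold higher and 518 (4.85%) 2-fold lower, and the median log2 ratio was -0.00039. The 4 higher members were Ifit1, Ifit3, Ifit3b and Ifitm3. Ifit1, Ifit3 and Ifit3b were under 1 FPKM in the control library and entered the tested genes through the knockdown library alone, so they had to be higher. Of the 629 genes that entered that way, 33.5% were 2-fold higher. Ifitm3 was well above 1 FPKM in both libraries, and of the 10042 genes at 1 FPKM or more in the control library, 5.14% were 2-fold higher.

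Among the IFIT genes, which lie together on chromosome 19, the RNA-binding Ifit1 and both Ifit3 copies had read ratios from 11.7 to 31.9, knockdown over control, while that of Ifit2 was 1.02. Ifit3 (ENSMUSG00000074896, chr19:34583531-34588731, plus strand), a short member of the family in mice, was at 0.367 FPKM (12 reads) in CT26shCtrl and 12.1 FPKM (396 reads) in CT26shSetdb1. Its read ratio was 31.9 (18.1 to 62.3), and its log2 ratio of (FPKM + 1) was 3.26, a scale that understates changes from low levels. Only 20 of the 10671 genes (0.187%) had a higher log2 ratio. Ifit3 entered the tested genes through the knockdown library alone, so it had to be higher, and this rank is not an independent measure. Of the 629 genes that entered that way, 33.5% were 2-fold higher.

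Ifit3b (ENSMUSG00000062488, chr19:34607970-34613401, plus strand), a close copy of Ifit3, was at 0.320 FPKM (12 reads) in CT26shCtrl and 5.55 FPKM (208 reads) in CT26shSetdb1. Its read ratio was 16.8 (9.40 to 33.0) and its log2 ratio 2.31. The copies resemble each other so closely that reads could pass between them: 51.2% of the 50-base stretches of the annotated Ifit3 transcript, and 18.5% of its 150-base stretches, also occur in Ifit3b. How reads that match both were counted is not given in the sources used here, so their separate levels are uncertain. Taken as 1 gene, the pair had 24 reads in CT26shCtrl and 604 in CT26shSetdb1, a read ratio of 24.3 (16.2 to 38.3). Ifit3 took 50% of the pair's reads in CT26shCtrl and 65.6% in CT26shSetdb1.

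Ifit1 (ENSMUSG00000034459, chr19:34640871-34650009, plus strand), the member that senses foreign caps, was at 0.382 FPKM (19 reads) in CT26shCtrl and 4.62 FPKM (230 reads) in CT26shSetdb1. Its read ratio was 11.7 (7.33 to 19.8) and its log2 ratio 2.02. The counting intervals of the read ratios of Ifit1 and Ifit3 overlap only narrowly, from 18.1 to 19.8, and that of Ifit3b overlaps both.

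Ifit2 (ENSMUSG00000045932, chr19:34550694-34576419, plus strand), which encodes a protein that binds AU-rich RNA and has been linked to cell death, did not follow its neighbours. It was at 1.29 FPKM (95 reads) in CT26shCtrl and 1.36 FPKM (100 reads) in CT26shSetdb1. The read ratio of 1.02 had an interval of 0.761 to 1.36, which lies wholly below those of Ifit1, Ifit3 and Ifit3b. In CT26shCtrl, Ifit2 had the highest level of the 4 and 54.7% of their summed FPKM, and in CT26shSetdb1 it had the lowest level and 5.75%. The share of Ifit3 was 15.6% in CT26shCtrl and 51.2% in CT26shSetdb1. The summed level of the 4 was 2.36 FPKM against 23.7 FPKM, and their summed reads were 138 against 934, a read ratio of 6.55 (5.47 to 7.89). The median log2 ratio of the 4 was 2.17, and it was 3.52 with a pseudocount of 0.1 in place of 1.

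The remaining IFIT loci of the mouse cluster were almost silent. Ifit1bl1 had 0 reads in CT26shCtrl and 2 in CT26shSetdb1, and Ifit1bl2 had 0 and 5 reads. Ifit1bl2 and Ifit1 point away from each other with 127 bases between their annotated starts. Both matches shown in the Ifit1 stretch, at chr19:34640785-34640794 and chr19:34640804-34640813, also lie in the RefSeq window of Ifit1bl2. The genes on the 2 sides of this shared stretch thus stood at 4.62 and 0.0793 FPKM in the knockdown library.

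**Figure D2:**
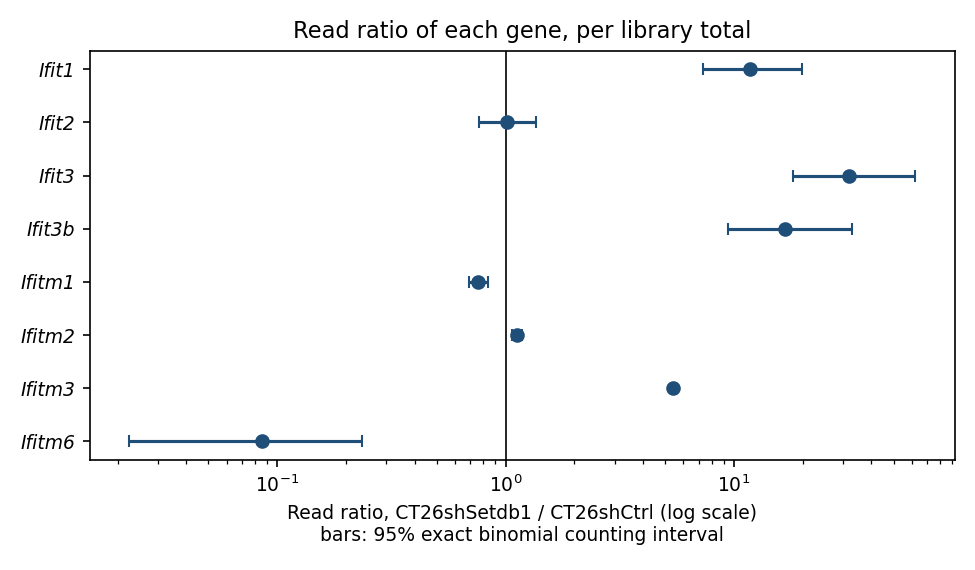
Ratio of reads, CT26shSetdb1 over CT26shCtrl, each relative to its library total (horizontal log axis), with 95% exact binomial intervals as bars and a line at 1. The intervals of Ifit1, Ifit3, Ifit3b and Ifitm3 lie above 5, that of Ifit2 spans 1, and that of Ifitm6 lies below 0.236.

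The 3 IFITM members, which lie together on chromosome 7, differed from each other beyond counting error: Ifitm3 was 5.42-fold higher by reads, Ifitm2 1.12-fold higher and Ifitm1 1.32-fold lower. Ifitm3 (ENSMUSG00000025492, chr7:141009586-141010770, minus strand), the endosomal member known for blocking influenza virus, was at 469 FPKM (5951 reads) in CT26shCtrl and 2627 FPKM (33360 reads) in CT26shSetdb1. Its read ratio was 5.42 (5.27 to 5.57) and its log2 ratio 2.48. This placed it at rank 91 by FPKM among protein-coding genes in the control library and at rank 6 in the knockdown library. A higher log2 ratio was found for 61 of the 10671 genes (0.572%).

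Ifitm2 (ENSMUSG00000060591, chr7:140954837-140955987, minus strand), another endosomal member and a close relative of Ifitm3, was at 241 FPKM (2962 reads) in CT26shCtrl and 279 FPKM (3425 reads) in CT26shSetdb1. The read ratio was 1.12 (1.06 to 1.18), far from that of Ifitm3 relative to counting error, and the log2 ratio was 0.21. Of the tested genes, 35.4% had a higher log2 ratio, so Ifitm2 stood within the bulk of the transcriptome. Its annotated span overlaps Gm45717, which had 0 reads in both libraries.

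Ifitm1 (ENSMUSG00000025491, chr7:140967221-140969825, plus strand), the member found mainly at the cell surface, was at 48.0 FPKM (983 reads) in CT26shCtrl and 37.7 FPKM (772 reads) in CT26shSetdb1. It was 1.32-fold lower by reads (1.20 to 1.45), with a log2 ratio of -0.34. A difference of this size was common, since 26.2% of the tested genes had a lower log2 ratio. The 3 genes together were at 758 FPKM in CT26shCtrl and 2944 FPKM in CT26shSetdb1, a ratio of summed reads of 3.67 (3.59 to 3.75). Ifitm3 made up 61.8% of that sum in CT26shCtrl and 89.2% in CT26shSetdb1, while Ifitm2 went from 31.9% to 9.48% and Ifitm1 from 6.33% to 1.28%. The median log2 ratio of the 3, 0.21, is the value of Ifitm2 alone.

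The 3 IFITM transcripts have few identical stretches of 50 bases or more in common. Of the 50-base stretches of the Ifitm3 transcript, 3.18% also occur in Ifitm2 and 2.38% in Ifitm1, and none of its 100-base stretches do. Only identical stretches were counted, and whether reads passed between these genes was not tested. Outside the named family, the authors' deposited table holds 10 further loci, 9 of them processed pseudogenes, that match the Ifitm1, Ifitm2 or Ifitm3 protein. All 10 had 0 reads in both libraries.

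Further IFITM loci were at low levels. Ifitm6 (ENSMUSG00000059108, chr7:141015699-141017924, minus strand), which neighbours Ifitm3, went the other way: it was at 2.65 FPKM (45 reads) in CT26shCtrl and 0.236 FPKM (4 reads) in CT26shSetdb1. By reads it was 11.6-fold lower (4.24 to 44.5), with a log2 ratio of -1.56, and 1.22% of the tested genes had a lower one. It entered the tested genes through the control library alone, so it had to be lower. Ifitm5, the bone-related member, had 5 and 7 reads, Ifitm10 had 6 and 3, and Ifitm7 had 0 in both, which is too few to compare at this depth.

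**Figure D3:**
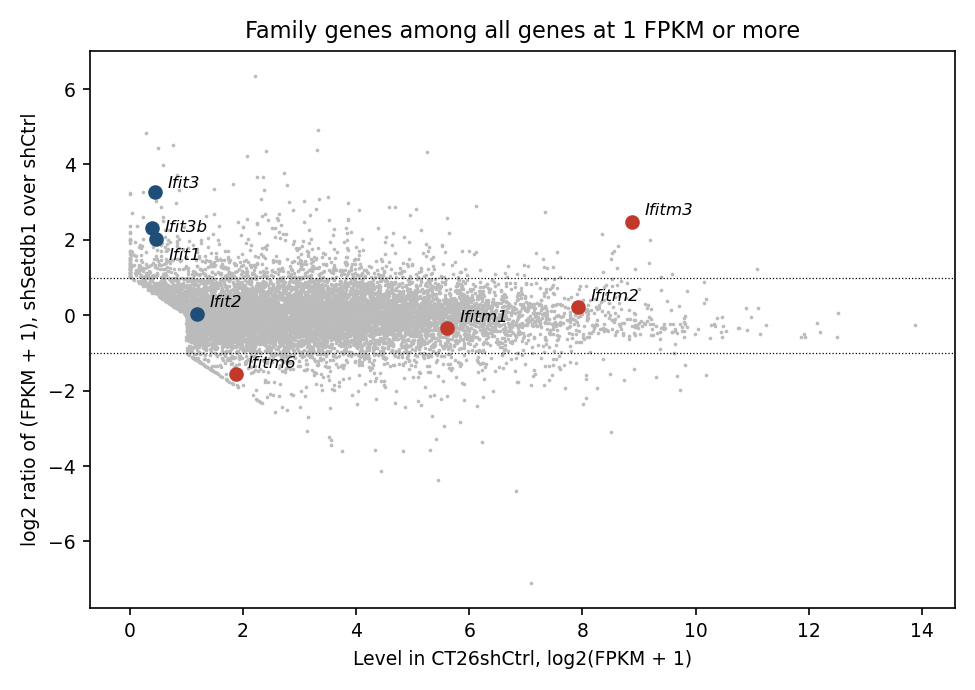
Log2 ratio of (FPKM + 1), CT26shSetdb1 over CT26shCtrl (vertical axis), against the level in CT26shCtrl as log2(FPKM + 1) (horizontal axis) for the 10671 tested genes (grey points), with IFIT genes in blue, IFITM genes in red and dotted lines at 2-fold. Ifitm3 stands at 2.48 among genes of high level, and Ifit1, Ifit3 and Ifit3b stand between 2.02 and 3.26 at the low end.

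Levels per length ordered the 7 members differently in the 2 libraries. In CT26shCtrl the order was Ifitm3, Ifitm2, Ifitm1, Ifit2, Ifit1, Ifit3 and Ifit3b. The last 3 of these could not be told apart, because their exact Poisson 95% intervals were 0.230 to 0.596 FPKM for Ifit1, 0.190 to 0.641 for Ifit3 and 0.166 to 0.560 for Ifit3b. In CT26shSetdb1 the order was Ifitm3, Ifitm2, Ifitm1, Ifit3, Ifit3b, Ifit1 and Ifit2. There the intervals of Ifit3b (4.82 to 6.36 FPKM) and Ifit1 (4.04 to 5.26 FPKM) overlapped, and those of the other neighbours did not. The places of Ifit3 and Ifit3b rest on how reads were split between these copies, which is uncertain and not covered by the intervals. The 3 IFITM members were above every IFIT gene in both libraries.

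Both clusters were then read along the chromosome, to see whether nearby genes moved with the members. The Ifit cluster spans 99.3 kb and the Ifitm cluster 69.0 kb. Within 100 kb of the Ifit cluster lay 4 loci of other kinds, of which 3 had 0 reads in both libraries. The fourth was Lipa, the lysosomal acid lipase, at 6.83 FPKM in CT26shCtrl and 13.3 FPKM in CT26shSetdb1, a log2 ratio of 0.87.

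Around the Ifitm cluster lay 20 other loci, and 8 of them reached 1 FPKM. None of these 8 was 2-fold higher or lower on the log2(FPKM + 1) scale. Their values ran from -0.60 for Ric8a to 0.96 for Pkp3, a desmosome gene that reached 1 FPKM in the knockdown library alone. Of all 10671 tested genes, 6.81% were 2-fold higher and 4.85% 2-fold lower, so 0 calls among 8 loci says little. Pkp3 had 64 reads in CT26shCtrl and 189 in CT26shSetdb1, so by reads it was past 2-fold. Sigirr, a brake on interleukin receptor signalling, stood at 0.56, Psmd13, a proteasome subunit, at 0.83, Pgghg at 0.62, the mitochondrial deacetylase gene Sirt3 at 0.50 and Bet1l at -0.12. The upper quartile of the log2 ratio over all tested genes was 0.38. Pkp3, Psmd13, Pgghg, Sigirr, Sirt3 and a processed pseudogene (0.41) lay above it, as did Lipa, while Bet1l and Ric8a were lower in the knockdown library. On the log2(FPKM + 1) scale, the loci past 2-fold in both clusters were family genes, and each cluster also held family genes that did not pass it.

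**Figure D4:**
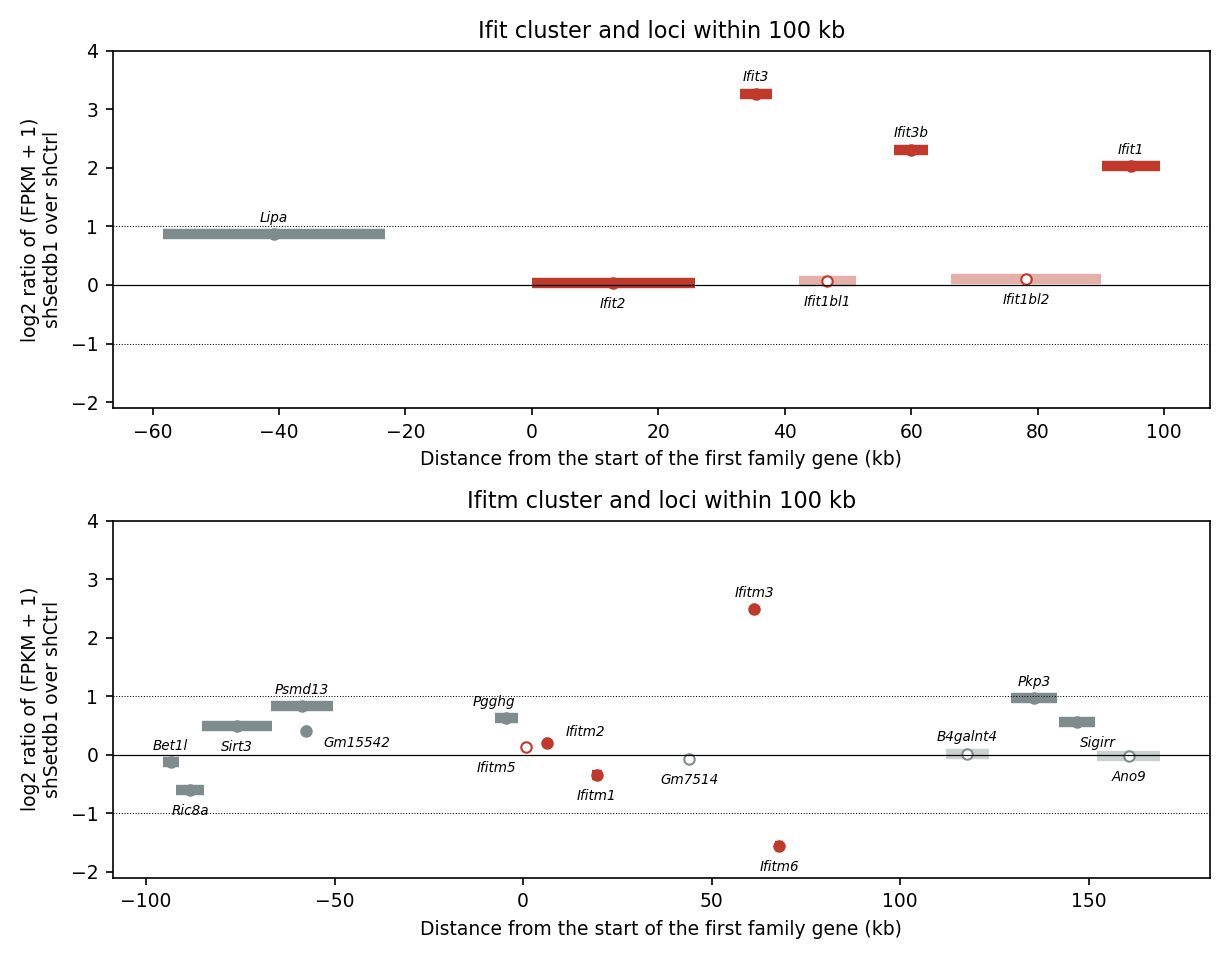
Log2 ratio of (FPKM + 1), CT26shSetdb1 over CT26shCtrl (vertical axis), for loci with reads along the Ifit cluster (top) and the Ifitm cluster (bottom), by distance in kb from the start of the first family gene (horizontal axis). Family genes are red and others grey, bars show gene spans, open circles and pale bars mark genes under 1 FPKM in both libraries, and no grey locus passes the dotted lines at 2-fold.

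The rest of the interferon pathway was described with lists of 82 genes, all of which were found. Of these, 53 reached 1 FPKM, and 32 of the 53 were 2-fold higher and 0 were 2-fold lower, with a median log2 ratio of 1.49. Over all 10671 tested genes, 6.81% were 2-fold higher and 4.85% 2-fold lower. Counting only the 44 that reached 1 FPKM in the control library, 25 were 2-fold higher, against 5.14% of all 10042 such genes. Of all genes that reached it in the knockdown library alone, 33.5% were 2-fold higher. These shares are the background for each list below. These lists were drawn up with earlier results of these libraries known, so their direction is not independent evidence.

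At the top of the pathway, the interferon genes themselves were nearly without reads. Of 21 ligand genes, 20 had 0 reads in both libraries, and Ifnb1 had 1 read in CT26shCtrl and 5 in CT26shSetdb1. Among receptors and their kinases, 0 of 8 at 1 FPKM were past 2-fold in either direction on the log2(FPKM + 1) scale, from -0.82 for Jak2, a kinase of the interferon-gamma receptor, to 0.95 for Ifngr2, a chain of that receptor. By reads these lay past 2-fold, Jak2 at 2.63-fold lower (2.06 to 3.37) and Ifngr2 at 2.05-fold higher (1.81 to 2.33). The transcription factors stood higher, with 4 of 8 past 2-fold and a range from 0.20 for Irf3 to 4.91 for Irf7, which amplifies interferon induction. Counting only the 6 at 1 FPKM in the control library, 3 were past 2-fold. Stat2 and Irf9, named here after their values were seen, had log2 ratios of 2.20 (578 and 3051 reads) and 1.88 (640 and 2625 reads).

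Downstream, 4 of 9 genes for sensing RNA and DNA were 2-fold higher, from -0.11 for the adaptor Mavs to 3.35 for the helicase Dhx58. Counting only the 7 at 1 FPKM in the control library, 3 were 2-fold higher. Of 23 other antiviral effectors at 1 FPKM, 21 were 2-fold higher, with a median log2 ratio of 2.56. The range of the 23 ran from -0.91 for Ifi27 to 4.34 for Ifi27l2a, a related gene that went from 320 to 6634 reads. Of the 23 effectors, 5 reached 1 FPKM in the knockdown library alone, so they had to be higher. Of the 18 at 1 FPKM in the control library, 16 were 2-fold higher. Of 5 feedback regulators 3 were 2-fold higher, from 0.32 for Nmi to 3.10 for Usp18, which dampens the interferon receptor. Beside these values, Ifit1, Ifit3, Ifit3b and Ifitm3 lay within the range of the 21 higher effectors. Both groups were picked for passing 2-fold in these same libraries, so the call sets the lower end of that range. The overlap is therefore not evidence of a shared behaviour. Ifit2, Ifitm1 and Ifitm2 did not reach 2-fold, as was the case for 2 effectors, Ifi27 and Samhd1, of which the latter was picked after its value of -0.27 was seen.

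**Figure D5:**
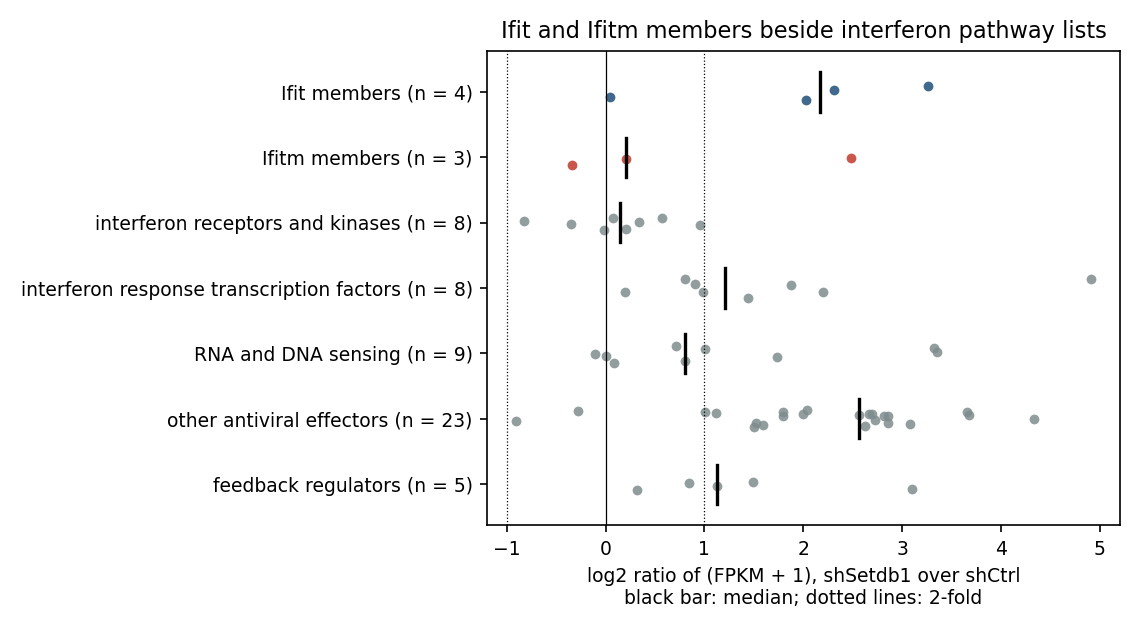
Log2 ratio of (FPKM + 1), CT26shSetdb1 over CT26shCtrl (horizontal axis), for the IFIT members (blue), the IFITM members (red) and the genes of 5 interferon pathway lists that reached 1 FPKM (grey). Black bars are medians and dotted lines mark 2-fold. The median is 2.17 for the 4 IFIT members, 0.21 for the 3 IFITM members and 2.56 for the 23 other effectors. Ifit1, Ifit3, Ifit3b and 5 of the other effectors reached 1 FPKM in the knockdown library alone, so they had to be higher.

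Genes closest in level to a member in both libraries were sought by the distance between pairs of log2(FPKM + 1) values, so over only 2 libraries. For Ifit3, the IFIT member with most reads over both libraries together, the nearest protein-coding genes were Cxcl10, an interferon-induced chemokine, at a distance of 0.0494, Slfn2 at 0.22 and Vwa1 at 0.30. Cxcl10 was at 0.356 FPKM in CT26shCtrl and 11.7 FPKM in CT26shSetdb1. Like Ifit3, all 3 were under 1 FPKM in CT26shCtrl, with 15, 12 and 12 reads, so their order is uncertain. Being chosen for nearness to Ifit3 in both libraries, they had to be higher in the knockdown library. Whether they share a behaviour with Ifit3 was not tested. For Ifitm3 the nearest were 3 glycolytic genes, Ldha at a distance of 0.36, Pgk1 at 0.87 and Aldoa at 0.93. Ldha was at 585 FPKM in CT26shCtrl and 2345 FPKM in CT26shSetdb1. Pgk1 and Aldoa were at 1491 and 1410 FPKM in CT26shSetdb1, against 2627 FPKM for Ifitm3, so the match is loose. With Ifitm3 at rank 6 among protein-coding genes in that library, few genes lay near its level. A link between Ifitm3 and these genes was not tested.

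Because some IFITM genes are abundant in blood cells, markers of other cell types were read beside the members. In bulk libraries, a different share of cells and a different amount of RNA per cell cannot be told apart. Of 14 immune markers, 1 reached 1 FPKM: Cd68, a lysosomal protein of macrophages, was at 10.4 FPKM in CT26shCtrl and 100.2 FPKM in CT26shSetdb1. The summed level of the 14 was 11.6 and 101.2 FPKM, nearly all of it Cd68. The defining leukocyte gene Ptprc had 0 and 4 reads, and Itgam, Adgre1, Cd3e, Flt3 and Siglech had 0 in both. Whether cells with Cd68 contributed to the levels of the members was not tested. Of 4 endothelial markers, 0 reached 1 FPKM and 3 had 0 reads in both libraries.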

How the data were processed

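RNA sequencing was compared between 1 CT26shSetdb1 and 1 CT26shCtrl library, grouped by the genotype in the labels, with columns matched by library name. The authors deposited FPKM values per gene, per the file headers. Per the submitters' processing notes, CASAVA, HISAT2, featureCounts 1.5.0-p3 and the build GRCm38 were used, with no roles given. The strand setting and the handling of reads matching several places are not given in the sources used here. Both libraries had been divided by 1 common depth of 18731117 reads, so the log2 ratios still carry the 1.03 ratio of the totals, while read ratios do not. Coordinates of all 7 members equalled those of GENCODE M21.

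From these values, log2 ratios of (FPKM + 1) and read ratios with exact intervals were computed. Genes entered at 1 FPKM in at least 1 library. Calculations were tested on simulated data. The members, gene lists and tests were chosen with earlier results of these data known. Named were all members, all loci with an Ifit or Ifitm symbol, and protein-coding loci at 1 FPKM within 100 kb of either cluster. Also named were Setdb1, the highest and lowest gene of each list, and the 3 genes nearest to 1 member of each family. That member was the one with most reads over both libraries together. Marker genes were read from fixed lists. Tools were scipy 1.17.1, pandas 2.3.3, numpy 2.4.6 and matplotlib 3.10.9 under Python 3.11.15. Alternatives were another pseudocount, filter, scaling, threshold and unit, means, and the Ifit3 pair as 1 gene. Single values of some listed genes are not reported here.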

Additional observations from a re-analysis of the deposited data

How the results depend on the processing

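No paired analysis was possible because there was a single library on each side, which also kept any library from being left out. Of 35 values of single members under 5 alternatives, 26 stayed within counting error, 9 moved and 0 reversed. The same 4 members were 2-fold higher at every scaling, pseudocount and threshold run, and 3 of the 7 with a filter at 5 FPKM, which removes Ifit1 from the tested genes. With a pseudocount of 0.1 the IFIT median was 3.52, the pathway median 1.89 and the number of genes 2-fold higher 1134, and on log2(CPM + 1) the 2 medians were 2.77 and 1.79, since a smaller pseudocount relative to the value widens the ratios of low genes. Filtering at 5 FPKM gave 2.79 for the 2 IFIT genes left and 1.84 for the pathway, and no filter gave 0.52 for the pathway, as 29 genes of few or no reads joined. The mean of the 3 IFITM genes was 0.78, carried by Ifitm3. Thresholds of 1.5-fold and 4-fold gave 1804 and 116 higher genes, as they are set to do. A filter on the mean of both libraries was added after seeing the data and left the 3 medians and the 4 higher members as they were, and gave 656 of 10148 genes 2-fold higher against 727 of 10671. Depth limits the IFIT members, with 12 to 95 reads each in the control library.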
